A study of Mus musculus with 6 samples.

Results

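The gene expression of EpCAM+ liver cells from the inducible DDB1 mutant, DDB1F/F;Mx1-Cre+/-, was set against that of EpCAM+ cells from both constitutive mutants, DDB1F/F;Alb-Cre+/+ and DDB1F/F;Alb-Cre+/-. These are 3 of the 6 arrays of the series, and each is the only array of EpCAM+ cells of its genotype. The comparison holds the 11347 genes, of 12379 read, whose detection p-value was under 0.05 on at least 1 of the 3 arrays. A gene was counted when its Mx1-Cre signal lay beyond both Alb-Cre signals on the same side, and the size given is the difference to the nearer of them. A p-value of 0.0491 was the weakest detection inside this limit (1700018A04Rik) and 0.0502 the strongest outside it (Acat3).

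All 3 mutants carry floxed alleles of Ddb1 on a mixed C57BL/6 x 129 background. The cells were sorted from the non-parenchymal fraction with an antibody to EpCAM. For livers of Alb-Cre+/+ mice and of Mx1-Cre transplant donors, the study also describes a gate that leaves out cells with the macrophage antigen F4/80. The labels date the Alb-Cre+/+ cells to 4 weeks of age and the Alb-Cre+/- cells to 6 weeks. They give neither an age nor a treatment for the Mx1-Cre cells. Elsewhere the study used this line as adults, 6 weeks after an injection of poly(I:C). The other arrays hold EpCAM+ cells of mice on a DDC diet, the chemical model of oval cell activation, hepatocytes of the Alb-Cre+/+ mutant and wild type hepatocytes; their values are given here only beside those of the mutants' EpCAM+ cells. The labels name the tissue as mammary while the study describes liver. Cre driver, Cre dose, age, poly(I:C), the animal and the array all change together between these samples and cannot be told apart.

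DDB1 is the adaptor through which the CUL4 ubiquitin ligase holds its substrate receptors, and loss of it stops hepatocytes from dividing. In such a liver, oval cells, the small ductal progenitors that carry EpCAM, expand and can give rise to new hepatocytes and cholangiocytes. Alb-Cre is driven by the albumin promoter, which is active in hepatocytes from before birth, whereas Mx1-Cre is driven by an interferon-responsive promoter that poly(I:C) switches on in many cell types besides hepatocytes. The study describes the oval cells of the Alb-Cre+/+ liver as still expressing DDB1, so that the deletion there lies mainly in the hepatocytes around them. It describes the oval cells of the Mx1-Cre line as expressing DDB1 as well.

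Probes above background numbered 15829 for Mx1-Cre, 14942 for Alb-Cre+/+ and 16488 for Alb-Cre+/-, and the median standard error over the beads of a probe was 5.85 to 5.98% of its signal. Ddb1 itself read 276 in Mx1-Cre cells, against 259 in Alb-Cre+/+ and 205 in Alb-Cre+/- cells, which did not separate the genotypes. Epcam, the antigen of the sort, was dim, with 162 in Mx1-Cre and 125 in Alb-Cre+/+ cells and a signal not above background in Alb-Cre+/- cells. The other ductal markers were bright in all 3: Sox9 read 29639 in Mx1-Cre cells, against 15748 and 25249 in Alb-Cre+/+ and Alb-Cre+/- cells, and Spp1 read 41389, against 48459.8 and 51175. Albumin was near background, with 143 in Mx1-Cre cells, no signal above background in Alb-Cre+/+ and 118 in Alb-Cre+/- cells, on a probe that read only 794 in wild type hepatocytes.

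Mx1-Cre cells lay over 2-fold above both Alb-Cre arrays at 199 genes (1.75% of 11347) and over 2-fold below both at 270 genes (2.38%). By any amount they lay above both at 3918 genes (34.5%) and below both at 3045 genes (26.8%), and the median log2 difference to the mean of the Alb-Cre arrays was -0.014. The nearest folds at the threshold were 2.004 (Adgrf1) and 1.999 (Ankmy2) on the higher side and 2.001 (Sema6a) and 1.999 (Klhdc4) on the lower side. Of the genes counted, 137 higher and 211 lower ones were above background on all 3 arrays, while 30 higher and 59 lower folds are lower bounds, because the dimmer signal was not above background. Higher genes made up 42.4% of the calls with quantile normalization and 63.1% with scaling to the median, which moves the median over all genes to 0.09.

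With limma (empirical Bayes with a trend on mean signal, two-sided, Benjamini-Hochberg adjusted p under 0.05), 13 genes rose in Mx1-Cre cells (0.115%) and 34 fell (0.3%), and all of these were among those over 2-fold beyond both arrays. At an unadjusted p under 0.05 there were 545 and 403 genes. The spread behind these tests comes from the difference between the Alb-Cre arrays, with 1 residual degree of freedom. Those arrays are not replicates, and the single Mx1-Cre array is assumed to vary as they do. For genes above background on neither Alb-Cre array, both values are floors set in processing, so that difference is not a measured one. Without the trend no gene passed, so each p-value given here rests on the trend. The Alb-Cre arrays differed from each other over 2-fold at 516 genes higher and 589 lower in Alb-Cre+/+ cells, and Mx1-Cre cells differed from Alb-Cre+/- cells at 335 higher and 491 lower genes and from Alb-Cre+/+ cells at 871 and 809. The correlation of log2 signals over the 11347 genes, which are not independent replicates, was 0.952 between Mx1-Cre and Alb-Cre+/-, 0.916 between Mx1-Cre and Alb-Cre+/+, and 0.942 between the Alb-Cre arrays. By correlation the Mx1-Cre array was nearer to Alb-Cre+/- than the Alb-Cre arrays were to each other.

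**Figure D1:**
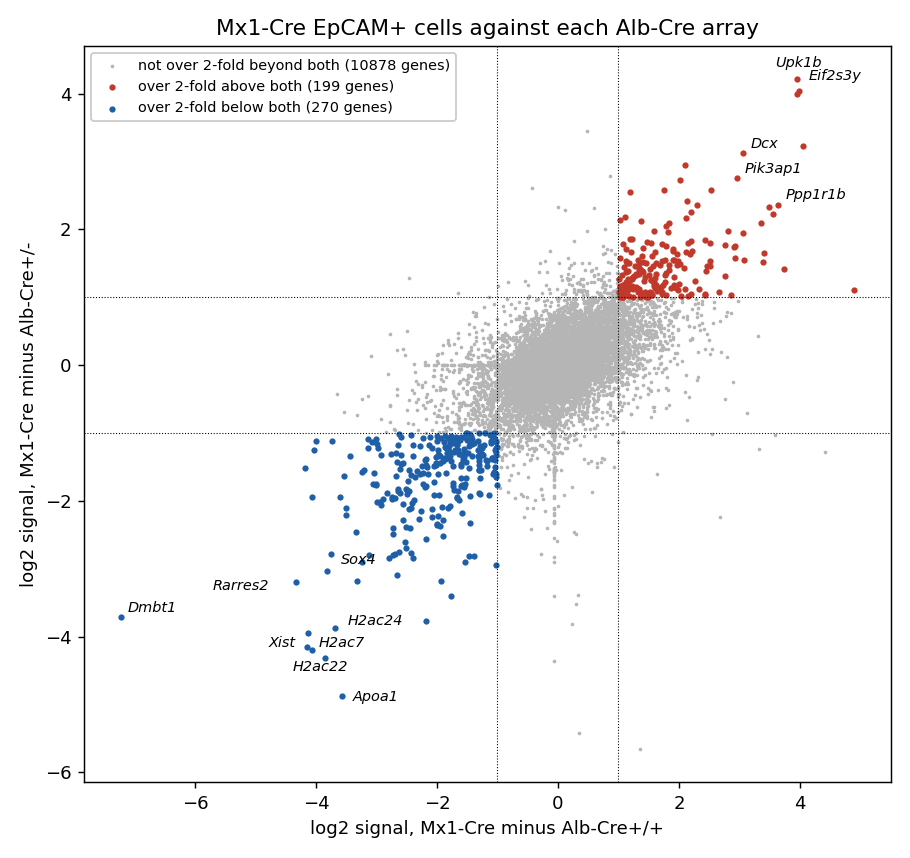
The log2 signal of Mx1-Cre minus Alb-Cre+/+ EpCAM+ cells (horizontal axis) is plotted against Mx1-Cre minus Alb-Cre+/- (vertical axis), 1 point per gene, with dotted lines at 2-fold. The 199 genes over 2-fold above both arrays lie at the top right and the 270 below both at the bottom left, where Dmbt1, Apoa1 and the H2A genes lie furthest out.

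Among genes above background on all 3 arrays, the furthest above both Alb-Cre arrays was Upk1b, a uroplakin of the urothelial membrane. It read 3880.1 in Mx1-Cre cells, against 249.8 in Alb-Cre+/+ and 209.5 in Alb-Cre+/- cells, 15.5-fold over the nearer array (limma log2 4.08 ± 0.63 SE, Benjamini-Hochberg adjusted p = 0.00395). The DDC array gave 114 for it and neither hepatocyte array a signal above background, so the brightest Upk1b signal of the 6 arrays was that of Mx1-Cre. Pik3ap1, an adaptor that links receptors to PI3 kinase in B cells, read 4109.5 in Mx1-Cre cells, against 525 and 610.3 in Alb-Cre+/+ and Alb-Cre+/- cells (limma adjusted p = 0.00989), and 3203 on the DDC array. Ppp1r1b, a phosphatase inhibitor best known from dopamine-responsive neurons, read 5834 in Mx1-Cre cells, against 468 and 1132 (limma adjusted p = 0.0103). Among the 15 genes furthest above both arrays, only these 3 and Akr1c19 passed the limma test. Akr1c19, an aldo-keto reductase, read 15748 in Mx1-Cre cells, against 4486 and 4044 in Alb-Cre+/+ and Alb-Cre+/- cells (limma adjusted p = 0.0284); its near relatives in the Akr1c cluster could share the probe.

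The remaining 11 of these genes were 3.47- to 5.03-fold above the nearer Alb-Cre array and did not pass the test. Several are metabolic enzymes. Acsm3, a medium-chain acyl-CoA synthetase, read 1976 in Mx1-Cre cells, against 177 in Alb-Cre+/+ and 393 in Alb-Cre+/- cells. Papss1, which makes the sulfate donor PAPS, read 4459, against 1002 and 1284. Iyd, an enzyme that recovers iodide from iodotyrosines, read 2079, against 387 and 581, and was brighter still in hepatocytes (4921 in the mutant and 5324 in wild type). Elapor1, a membrane protein of endosomes and lysosomes, read 2427 in Mx1-Cre cells, against 238 and 568 in Alb-Cre+/+ and Alb-Cre+/- cells. Wfdc3, a protein with whey acidic protein domains, read 2518, against 215 and 536. On both, the Alb-Cre arrays also differed from each other by over 2-fold, Alb-Cre+/- being the higher. The others were Lars2, Cfap69, Agtrap, Smim6, Cdc42ep1 and Tmem64, with Mx1-Cre signals of 626 (Cdc42ep1) to 1164 (Cfap69). Lars2 and Cdc42ep1 lay under 2-fold when all probes of the gene were averaged (log2 0.95 and 0.84).

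**Figure D2:**
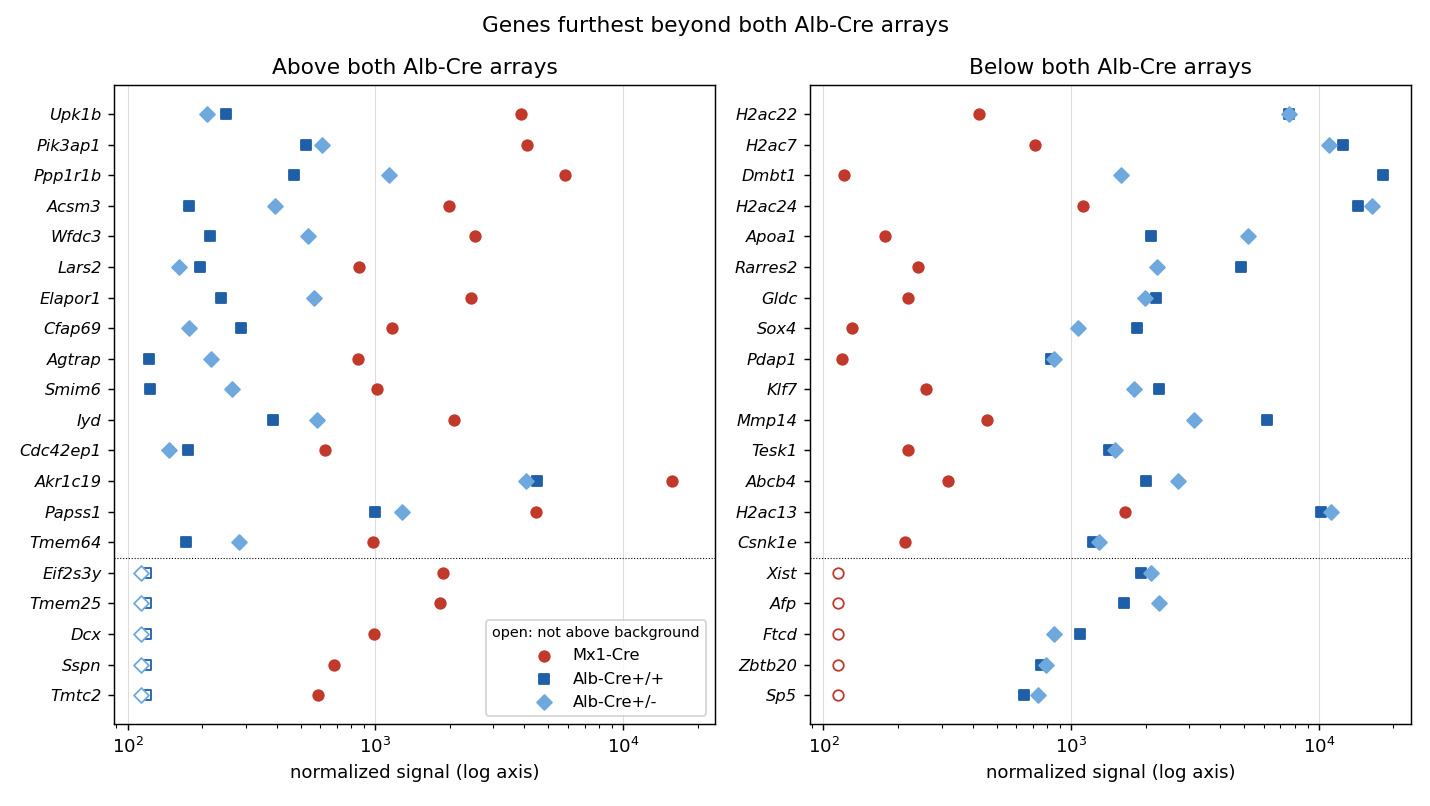
The normalized signal on each array (logarithmic axis) is drawn for the 15 genes furthest above and the 15 furthest below both Alb-Cre arrays, and, under the dotted line, for the 5 highest lower bounds in each direction; circles are Mx1-Cre, squares Alb-Cre+/+ and diamonds Alb-Cre+/-. Upk1b stands out at 3880.1 in Mx1-Cre cells on the left, and on the right the H2A genes H2ac22, H2ac7 and H2ac24 have nearly the same signal on both Alb-Cre arrays and a far lower one in Mx1-Cre cells.

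Other higher genes were above background in Mx1-Cre cells and on neither Alb-Cre array, so their folds are lower bounds. Their Alb-Cre values are floors of 118.5 and 113.8, so their limma p-values rest on no measured spread of their own. The same holds for Eif2s3y and Tmem25 below. Dcx, the microtubule-binding doublecortin of migrating neurons, read 993 in Mx1-Cre cells and was above background on no other array of the series, at least 8.38-fold higher (limma log2 3.10 ± 0.61 SE, Benjamini-Hochberg adjusted p = 0.0272), and its other probe with a signal above background read 678.8 in Mx1-Cre cells and was at the floor of 113.8 on both Alb-Cre arrays. Sspn, or sarcospan, of the dystrophin complex, read 682, at least 5.76-fold higher (limma adjusted p = 0.0395), and 677 on the DDC array. Tmtc2, an endoplasmic reticulum transferase, read 585, at least 4.94-fold higher (limma adjusted p = 0.0435).

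The arrays also differed in transcripts of the sex chromosomes, and the labels give no sex. Eif2s3y, a translation factor gene of the Y chromosome, read 1880.3 in Mx1-Cre cells and was not above background on either Alb-Cre array, at least 15.9-fold higher (limma adjusted p = 0.0103). Xist, the noncoding RNA of the inactive X chromosome, was not above background in Mx1-Cre cells and read 1907 in Alb-Cre+/+ and 2094 in Alb-Cre+/- cells, at least 16.7-fold lower (limma adjusted p = 0.00165). Both Alb-Cre arrays thus had Xist without Eif2s3y, and the Mx1-Cre array had Eif2s3y without Xist, as did the DDC and wild type hepatocyte arrays. Kdm5d, another Y-linked gene, gave a raw signal of 132.6 with a detection p of 0.00748 on 1 probe in Mx1-Cre cells and no signal above background on the Alb-Cre arrays, while its other probe and the 4 probes of the Y-linked gene Uty were not above background in Mx1-Cre cells either (detection p-values of 0.11 to 0.922). This split falls exactly between the groups compared, and its part in the other differences was not tested. Tmem25, a membrane protein gene, had nearly the same pattern as Eif2s3y, with 1824 in Mx1-Cre cells and no signal above background on either Alb-Cre array (limma adjusted p = 0.0103). The other Tmem25 probes were not above background on any array (detection p-values of 0.634 and 0.561 in Mx1-Cre cells). A further Eif2s3y probe was not above background in Mx1-Cre cells either (detection p of 0.297). Of 15 measured genes whose level in mouse liver is known to differ between the sexes, only 6 were above background on all 3 arrays. None of the 15 lay over 2-fold beyond both Alb-Cre arrays (0 of 15 in each direction, beside 1.75% and 2.38% of all genes). At such shares a count of 0 among 15 genes was likely beforehand, so it says nothing about sex. Mup2, a major urinary protein, instead differed between the Alb-Cre arrays, and read 545 in Mx1-Cre cells, against 213 in Alb-Cre+/+ and 27367 in Alb-Cre+/- cells.

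Several replication-dependent histone H2A genes were among the lowest, a group singled out after its values had been seen. These genes are clustered with those of the other core histones, are transcribed mainly in S phase, and carry largely the same protein. H2ac22 read 424 in Mx1-Cre cells, against 7544 in Alb-Cre+/+ and 7552 in Alb-Cre+/- cells, 17.8-fold lower (limma log2 -4.15 ± 0.40 SE, Benjamini-Hochberg adjusted p = 2.62e-05). H2ac7 read 714, against 12559 and 10963 (limma adjusted p = 2.62e-05), and H2ac24 read 1118, against 14374 and 16403 (limma adjusted p = 3.19e-05). In each the Alb-Cre signals lay close together and the Mx1-Cre signal far below them. H2ac13, H2ac20 and H2ac10, with Mx1-Cre signals of 1654, 2426 and 2552, also fell, and H2ac12, H2ac15 and H2ac21 were over 2-fold below both arrays without passing the test. In all, 9 of 15 H2A genes were over 2-fold below both arrays, beside 2.38% of all genes, and none above. The median log2 difference was -2.11, and -1.44 over all probes of each gene.

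Of 10 H2B genes, 7 H3 genes, 6 H4 genes and 4 linker histone genes, none lay over 2-fold beyond both Alb-Cre arrays in either direction. Their median log2 differences were -0.12, -0.15, -0.16 and 0.03. Many of them, such as H2bc9, H4c12 and H1f1, read near the floor of 113.8 on at least 1 Alb-Cre array. A fall over 2-fold could not have been seen in those. Among brighter ones, H3c13 read 5438 in Mx1-Cre cells, against 5454 in Alb-Cre+/+ and 6806 in Alb-Cre+/- cells. H1f2 read 5344, against 4664 and 5639. No H2B or H4 gene was as bright. The 9 lower H2A genes had signals on the DDC array between those of the groups: H2ac22 read 1286, H2ac7 read 2125 and H2ac24 read 3009 there. On the hepatocyte arrays H2ac7 was dimmer than in Mx1-Cre cells, at 347 in the mutant and 303 in wild type, whereas H2ac13 was brighter, at 3614 and 4357. H2aj, a variant H2A that does not depend on replication, went the other way, with 524 in Mx1-Cre cells, against 181 and 150.4 in Alb-Cre+/+ and Alb-Cre+/- cells. H2A genes are nearly identical in their coding sequence, so 1 probe may read transcripts of several of them, and the 9 genes are not 9 independent measurements. Over the 6 arrays, H2ac15 and H2ac12 were 2 of the 5 genes whose log2 signal was most like that of Xist (r = 0.986 and 0.981, over samples of 4 kinds and with no test).

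**Figure D3:**
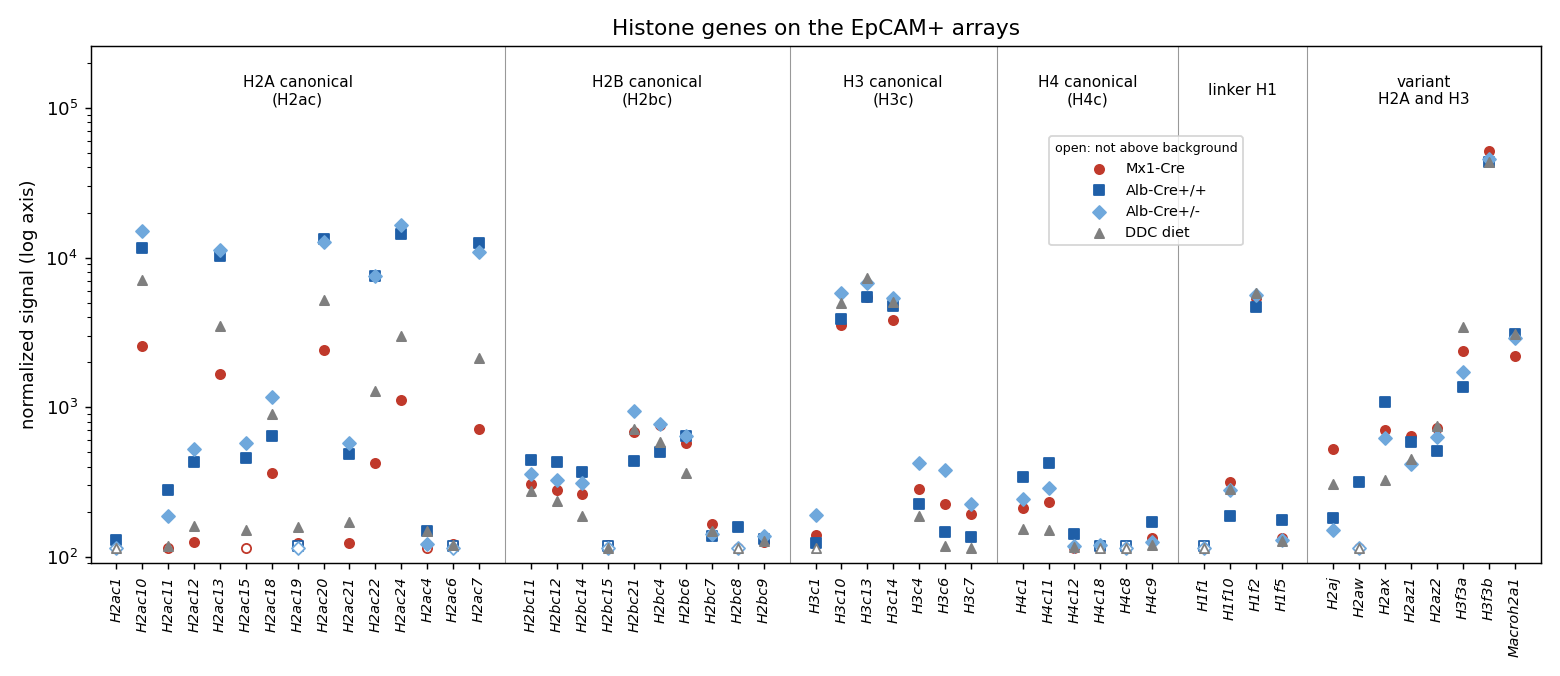
The normalized signal (logarithmic axis) of each histone gene above background on at least 1 of the 3 mutant arrays is drawn by family for Mx1-Cre (circles), Alb-Cre+/+ (squares), Alb-Cre+/- (diamonds) and DDC diet (triangles) EpCAM+ cells, with open symbols where a signal was not above background. The Mx1-Cre signals lie far below both Alb-Cre signals in 9 H2A genes, with the DDC signals in between. In no gene of the H2B, H3, H4 and H1 families do they lie over 2-fold beyond both. Many signals of those families lie near the floor, where a fall over 2-fold could not be seen.

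The upstream sequences of the 3 H2A genes with the lowest Mx1-Cre signal relative to Alb-Cre are shown because these genes moved together. H2bc7, which shares its upstream region with H2ac7, is shown beside them. It read 166 in Mx1-Cre cells, against 138 in Alb-Cre+/+ and 142 in Alb-Cre+/- cells. These signals lie near the floor of 113.8, so a fall like that of H2ac7 could not have been seen. Each sequence is the 250 bases before the RefSeq start on GRCm38.p6, 5′ to 3′ on the gene's strand. Capitals mark CCAAT and TATAA on either strand.
H2ac22: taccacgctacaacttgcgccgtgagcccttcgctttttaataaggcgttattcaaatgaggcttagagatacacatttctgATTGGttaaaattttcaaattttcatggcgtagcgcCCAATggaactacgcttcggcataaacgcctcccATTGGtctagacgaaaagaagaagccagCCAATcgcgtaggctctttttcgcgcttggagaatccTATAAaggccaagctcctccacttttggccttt
H2ac24: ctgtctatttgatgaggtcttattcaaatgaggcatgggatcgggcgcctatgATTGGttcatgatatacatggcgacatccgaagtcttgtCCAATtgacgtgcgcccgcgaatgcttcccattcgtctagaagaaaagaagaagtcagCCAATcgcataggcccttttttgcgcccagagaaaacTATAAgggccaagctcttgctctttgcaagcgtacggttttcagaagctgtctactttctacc
H2ac7: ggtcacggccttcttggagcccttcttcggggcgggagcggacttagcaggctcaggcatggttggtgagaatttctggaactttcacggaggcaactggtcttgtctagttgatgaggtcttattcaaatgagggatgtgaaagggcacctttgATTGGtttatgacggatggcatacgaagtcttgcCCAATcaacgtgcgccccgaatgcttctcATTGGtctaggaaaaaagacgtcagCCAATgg
H2bc7: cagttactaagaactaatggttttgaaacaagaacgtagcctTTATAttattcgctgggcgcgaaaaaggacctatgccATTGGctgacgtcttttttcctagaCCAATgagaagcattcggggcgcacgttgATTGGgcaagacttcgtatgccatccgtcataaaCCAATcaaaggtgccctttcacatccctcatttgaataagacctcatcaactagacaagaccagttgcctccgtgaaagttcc
H2ac22 lies at chr13:21787249-21787498 on the minus strand and H2ac24 at chr13:21833476-21833725 on the minus strand. H2ac7 lies at chr13:23574131-23574380 on the plus strand and H2bc7 at chr13:23574208-23574457 on the minus strand, so that 173 bases are common to both. CCAAT occurred 4 times before H2ac22, 3 times before H2ac24 and 4 times before both H2ac7 and H2bc7, and in 33.8% of 32851 RefSeq windows of this length. TATAA occurred once before H2ac22, H2ac24 and H2bc7, and in 22.8% of windows. These are matches of letters and not sites.

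Alpha-fetoprotein, Afp, the textbook gene of the fetal liver, fell in Mx1-Cre cells. It was not above background in Mx1-Cre cells and read 1635 in Alb-Cre+/+ and 2270.4 in Alb-Cre+/- cells, at least 14.3-fold lower (limma log2 -4.08 ± 0.57 SE, Benjamini-Hochberg adjusted p = 0.00168). It read 10819 in mutant hepatocytes and was not above background in wild type hepatocytes. Igf2, the fetal growth factor, was likewise not above background in Mx1-Cre cells, against 428 and 554 in Alb-Cre+/+ and Alb-Cre+/- cells, and Gpc3, a membrane glypican, read 216, against 487 and 574; neither passed the limma test, and Gpc3 lay under 2-fold with median scaling (log2 -0.86). These 3 of 10 measured genes of the fetal and early postnatal liver lay over 2-fold below both arrays (30%, beside 2.38% of all genes). None lay above both, and 4 were not beyond both by any amount. The median log2 difference was -1.17, but -0.69 over all probes and -0.31, with 1 gene lower, for genes above background on all 3 arrays. Zbtb20, a repressor of Afp in mouse liver, was not above background in Mx1-Cre cells and read 754 and 794 in Alb-Cre+/+ and Alb-Cre+/- cells.

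Of 30 measured hepatocyte markers, 6 lay over 2-fold below both Alb-Cre arrays (20%, beside 2.38% of all genes) and none above. The median log2 difference was -0.72, and 12 markers were over 2-fold lower than Alb-Cre+/- alone. Apoa1, the main protein of HDL, read 177 in Mx1-Cre cells, against 2092 in Alb-Cre+/+ and 5169 in Alb-Cre+/- cells (limma log2 -4.22 ± 0.54 SE, Benjamini-Hochberg adjusted p = 0.00109), and 57308 in wild type hepatocytes. Serpina1a, an alpha-1-antitrypsin gene with near-identical copies, read 1258, against 6759.9 and 3845 (limma adjusted p = 0.0435). Arg1 of the urea cycle, Fbp1 of gluconeogenesis, the heme carrier Hpx and the hemoglobin binder Hp were the others, and Hp lay under 2-fold with median scaling (log2 -0.85). Ttr and Ambp, equally liver-made proteins, were bright and close on all 3 arrays: Ttr read 37972 in Mx1-Cre cells, against 35519 and 46559.5. The markers of mature hepatocytes Cps1 and Cyp2e1 were dim on all 3 arrays and highest on Alb-Cre+/-. Cps1 was not above background in Mx1-Cre cells and read 173 in Alb-Cre+/+ and 260.3 in Alb-Cre+/- cells, and Cyp2e1 read 127, against 167 and 244. In a sorted sample, fewer cells of a type and less RNA per cell cannot be told apart.

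Among the 15 genes furthest below were Gldc, Rarres2 and Abcb4. Gldc, which cleaves glycine in mitochondria, read 219.8 in Mx1-Cre cells, against 2204 in Alb-Cre+/+ and 1989 in Alb-Cre+/- cells (limma adjusted p = 0.00426). Rarres2, the precursor of the chemoattractant chemerin, read 241, against 4842 and 2213 (limma adjusted p = 0.00167). Abcb4, which moves phosphatidylcholine into bile, read 318, against 2010 and 2707 (limma adjusted p = 0.00863), and 11533 in wild type hepatocytes. All 3 fell, and all 3 were brightest in hepatocytes. Of 14 measured genes of bile acid metabolism and hepatobiliary transport, 3 lay over 2-fold below both arrays (21.4%, beside 2.38% of all genes). These were Abcb4, Abcg5, a sterol transporter, and Cyp27a1, which oxidizes sterols. Ftcd, an enzyme of histidine breakdown, was not above background in Mx1-Cre cells, against 1082 and 849. Of 22 measured genes of xenobiotic metabolism, none lay over 2-fold beyond both arrays, beside 1.75% of all genes above and 2.38% below.

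Of 27 measured cholangiocyte markers, 1 lay over 2-fold below both Alb-Cre arrays (3.7%, beside 2.38% of all genes) and none above, and the median log2 difference was 0.10 (0.37 with median scaling). The 1 gene was Bicc1, an RNA-binding protein, with 7215 in Mx1-Cre cells, against 21076 and 15019; it did not pass the limma test and lay under 2-fold with median scaling (log2 -0.84). Krt19 read 4019 in Mx1-Cre cells, against 2903 in Alb-Cre+/+ and 2311 in Alb-Cre+/- cells, and Krt7 read 2087, against 6311 and 3910.1; these keratins of bile ducts lay on opposite sides of the Alb-Cre arrays, both by under 2-fold. The study examined 25 measured genes as oval cell or progenitor markers, Kit among them, which it describes as not expressed. Of these, 4 were over 2-fold lower (16%, beside 2.38% of all genes), namely Dmbt1, Afp, Cd44 and Ednrb, and none higher. The study cites many of the 25 as markers known from earlier work. It picked Reln, Ednrb and Mrc1 by comparing oval cells of its DDB1 mutant and DDC livers. It reported most of the 25 from arrays of this series, so the count is not independent evidence. Cd44, a hyaluronan receptor, read 211 in Mx1-Cre cells, against 1744 and 705, though under 2-fold over all its probes (log2 -0.49), and Ednrb, an endothelin receptor, read 722, against 3503 and 2186. Reln, which encodes the matrix protein reelin, lay between the Alb-Cre arrays, with 9429 in Mx1-Cre cells, against 4066 in Alb-Cre+/+ and 15518 in Alb-Cre+/- cells.

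Dmbt1, a scavenger receptor of mucosal surfaces, read 122 in Mx1-Cre cells, against 18189 in Alb-Cre+/+ and 1594 in Alb-Cre+/- cells, 13.1-fold below the nearer array (limma log2 -5.47 ± 0.85 SE, Benjamini-Hochberg adjusted p = 0.00395). Its signal also differed widely between the Alb-Cre arrays. Of 14 measured genes of mucosal defence, 4 (28.6%, beside 2.38% of all genes), namely Dmbt1, Tff3, Ltf and Slpi, lay over 2-fold below both and Pigr above both, and only Dmbt1 passed the limma test. The median log2 difference was -0.94, and -0.39 over all probes. Slpi, a protease inhibitor, read 298 in Mx1-Cre cells, against 3974 and 648, and lay just under 2-fold with median scaling (log2 -0.98). Pigr, which carries IgA across epithelium, read 514, against 219 and 142. In each of the 4 lower genes the Alb-Cre+/+ signal was further from Mx1-Cre than the Alb-Cre+/- signal was.

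Other cells of the non-parenchymal fraction were followed by their markers. Over all genes, 2.38% lay over 2-fold below both arrays and 1.75% above. Of 22 measured macrophage markers, 3 lay over 2-fold below both arrays and none above (median log2 -0.93), against 5 below Alb-Cre+/+ and 11 below Alb-Cre+/- taken alone, with a summed signal of 19074 in Mx1-Cre cells, against 24770 in Alb-Cre+/+ and 32522 in Alb-Cre+/- cells. Csf1r, the receptor of macrophage growth factor, read 329 in Mx1-Cre cells, against 1079 and 1183, although under 2-fold over all its probes (log2 -0.92). Of the 3 mutant EpCAM+ arrays, only Alb-Cre+/- had the defining Kupffer cell markers Adgre1, Vsig4 and C1qa above background. Adgre1 encodes the F4/80 antigen of that gate. Clec4f read 139 in Mx1-Cre cells, no signal above background in Alb-Cre+/+ and 1950.3 in Alb-Cre+/- cells. Of 24 measured stellate cell and fibroblast markers, 6 lay below both and 1 above (median log2 -0.50, and -1.06 for genes above background on all 3 arrays), with sums of 30206 in Mx1-Cre cells, against 39436 and 46658 in Alb-Cre+/+ and Alb-Cre+/- cells. Decorin, Dcn, a collagen-binding proteoglycan, read 370.2 in Mx1-Cre cells, against 2001 and 2507 (limma adjusted p = 0.0152), with log2 -0.91 over all its probes, and Bgn, the related biglycan, was the 1 higher gene, with 6652, against 2845 and 2976. Of 26 measured endothelial markers only Vwf lay over 2-fold below both (sums of 26633, 34444 and 50502 in Mx1-Cre, Alb-Cre+/+ and Alb-Cre+/- cells); Clec4g, a lectin of sinusoids, was bright on all, with 12143 in Mx1-Cre cells, against 16337 and 23781. Of 11 lymphocyte markers and 8 erythroid markers, none lay over 2-fold beyond both arrays. By any amount 2 lymphocyte markers lay below both and 2 erythroid markers above both. The lymphocyte sums were 4408, 4496 and 5928 in Mx1-Cre, Alb-Cre+/+ and Alb-Cre+/- cells. Of these 3 arrays, Cd3e was above background on Alb-Cre+/- alone. The erythroid sums were 6821, 2207 and 12672 in the same order, with Hba-a1 at 722 in Mx1-Cre cells, against 124 and 1461. Of 7 neutrophil markers 2 were lower, S100a9 among them, which was not above background in Mx1-Cre cells and read 715 and 405 in Alb-Cre+/+ and Alb-Cre+/- cells (sums of 865, 2387 and 1409). The part of these cells in the other differences was not tested.

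**Figure D4:**
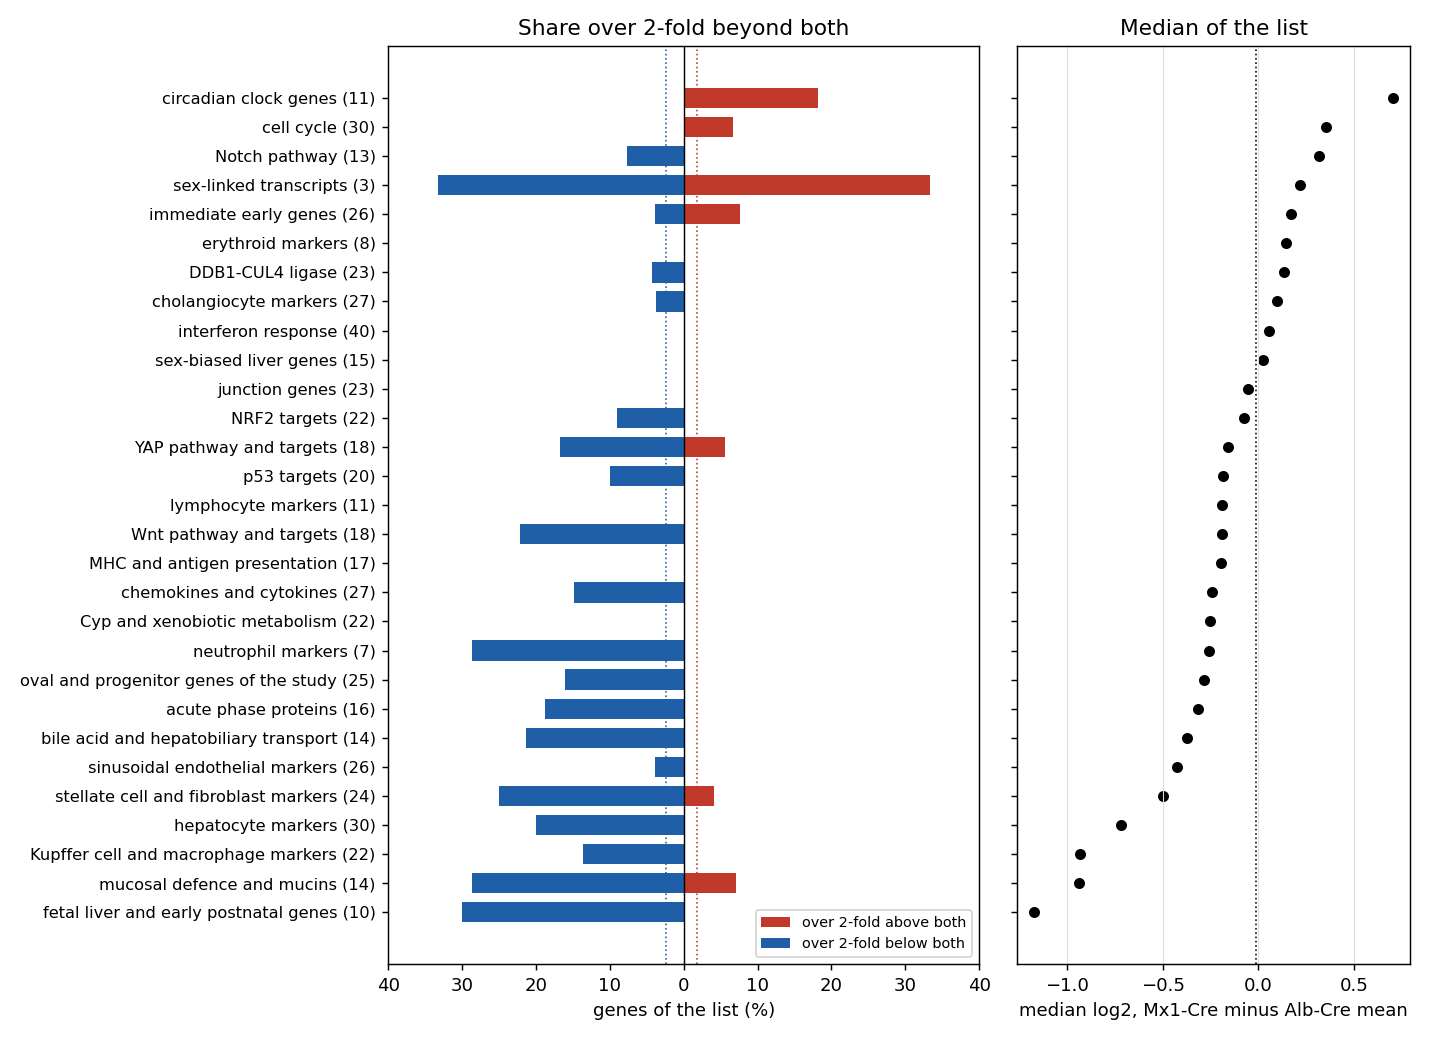
For each gene list, with its number of measured genes in parentheses, bars show the share over 2-fold above both Alb-Cre arrays (right) and below both (left), dotted lines the same over all 11347 genes (1.75% and 2.38%), and points the median log2 difference of Mx1-Cre to the mean of the Alb-Cre arrays. Fetal liver, mucosal, macrophage and hepatocyte lists have the lowest medians and the circadian list the highest, at 0.70.

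Because the Mx1 promoter and poly(I:C) both engage the interferon response, its genes were examined. Elsewhere the study sorted EpCAM+ cells of this line weeks after poly(I:C), and the labels give no such time for this array. Whether a response to the injection had ended by then was not tested. Of 40 measured, none lay over 2-fold beyond both Alb-Cre arrays in either direction, beside 1.75% of all genes above and 2.38% below. At such shares few of 40 genes would be counted, so the 0 says little. By any amount 14 lay above both and 8 below, where 34.5% and 26.8% of all genes did. The median log2 difference was 0.05 (with median scaling 0.32, and 1 gene over 2-fold above both). The Mx1 gene itself was not above background in Mx1-Cre or Alb-Cre+/- cells and read 128 in Alb-Cre+/+ cells. Ifit3, an interferon-induced antiviral gene, read 1050.2 in Mx1-Cre cells, against 844 in Alb-Cre+/+ and 1286 in Alb-Cre+/- cells. The furthest beyond both was Irgm2, an interferon-inducible GTPase, with 2534, against 952 and 1464. Of 17 measured genes of antigen presentation, none lay over 2-fold beyond both, and the median of -0.19 turned to 0.02 with median scaling. The class II gene H2-Ab1 separated the Alb-Cre arrays instead, with 3244 in Mx1-Cre cells, against 12285 in Alb-Cre+/+ and 2873 in Alb-Cre+/- cells. Of 27 chemokine and cytokine genes, 4 were over 2-fold lower (14.8%, beside 2.38% of all genes) and none higher, with a median log2 of -0.24. Among the 4 were Ccl4 and Cxcl12, neither above background in Mx1-Cre cells. Over all probes 2 were lower, with Cxcl12 at log2 -0.66 and Cxcl2 at -0.54; Cxcl2 also lay under 2-fold with median scaling (-0.86) and with the 3 arrays normalized alone (-0.98).

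Of 30 measured cell cycle genes, Nusap1 and Tyms lay over 2-fold above both Alb-Cre arrays (6.67%, beside 1.75% of all genes) and none below. The median log2 difference was 0.36. Nusap1, a spindle protein, read 4194 in Mx1-Cre cells, against 904 in Alb-Cre+/+ and 1303 in Alb-Cre+/- cells, and Tyms, which makes thymidylate, read 469, against 152 and 186; neither passed the limma test, and both lay under 2-fold over all probes (log2 0.99 and 0.62). By any amount, 15 lay above both, 5 below both and 10 were not beyond both. Of all genes, 34.5% lay above both and 26.8% below both. Of genes used in S phase, Mcm5 read 4792 in Mx1-Cre cells, against 3306 and 3823 in Alb-Cre+/+ and Alb-Cre+/- cells, and Mcm6 read 3542, against 5915 and 8803, on opposite sides of the Alb-Cre arrays.

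Among the substrates of the DDB1 ligase, Cdkn1a, the inhibitor p21 that it degrades, read 1891 in Mx1-Cre cells, against 4567 in Alb-Cre+/+ and 5531 in Alb-Cre+/- cells, and Cdt1, the licensing factor, read 1422, against 1913 and 1998. These are RNA levels and say nothing of the proteins. Cdkn1a lay over 2-fold below both but did not pass the limma test (log2 -1.41 ± 0.39 SE, adjusted p = 0.152) and was under 2-fold with median scaling (log2 -0.71). It was the 1 gene over 2-fold beyond both arrays among 23 of the ligase, its receptors and its substrates (4.35%, beside 2.38% of all genes lower). By any amount 12 of the 23 lay above both and 6 below both, where 34.5% and 26.8% of all genes did. Among 20 measured p53 targets Cdkn1a was joined by Ccng1 (10% lower, beside 2.38% of all genes), and the median of the list was -0.19. Ccng1, cyclin G1, read 1446 in Mx1-Cre cells, against 2987 and 4080.2 (log2 -0.50 with median scaling). Mdm2 read 4375, against 8621 and 5266, under 2-fold below the nearer array.

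Of 13 measured Notch genes, Sox4 lay over 2-fold below both arrays (7.69%, beside 2.38% of all genes) and none above. By any amount 6 lay above both and 2 below, where 34.5% and 26.8% of all genes did. The median log2 difference of the Notch list was 0.31. Of 18 Wnt genes, Sp5, Axin2, Cd44 and Wnt7a lay over 2-fold below both (22.2%, beside 2.38% of all genes) and none above. The median of the Wnt list was -0.19. Wnt7a lay under 2-fold with median scaling (log2 -0.82) and with the 3 arrays normalized alone (log2 -0.99). Sox4, a transcription factor of progenitor cells, read 131 in Mx1-Cre cells, against 1853 in Alb-Cre+/+ and 1069 in Alb-Cre+/- cells (limma log2 -3.43 ± 0.62 SE, Benjamini-Hochberg adjusted p = 0.0146). Sp5, a Wnt target, was not above background in Mx1-Cre cells and read 648 and 735 in Alb-Cre+/+ and Alb-Cre+/- cells. Axin2, a feedback inhibitor and Wnt target, read 154 in Mx1-Cre cells, against 462 and 522, and did not pass the limma test. Of 18 measured YAP genes, 3 were over 2-fold lower (16.7%) and Tead4 higher (5.56%), beside 2.38% and 1.75% of all genes. Tead4 and Rbms3 lay under 2-fold over all their probes (log2 0.53 and -0.58). Axl, a receptor kinase, read 489, against 1427 and 3635. The median of the YAP list was -0.16 and turned to 0.12 with median scaling. Ccn2, the best known YAP target, was bright on all 3 arrays, with 45288 in Mx1-Cre cells, against 54825 and 52617.

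Transcription factors, a metalloprotease and a kinase were also lower. Klf7 and Klf6, zinc finger factors, read 260.4 and 491 in Mx1-Cre cells, against 2269 and 5577 in Alb-Cre+/+ and 1801 and 2115 in Alb-Cre+/- cells (limma adjusted p = 0.00976 and 0.0152). Mmp14, a membrane metalloprotease, read 456, against 6176 and 3146 (limma adjusted p = 0.0018), and the kinase Tesk1 read 219.6, against 1419 and 1505 (limma adjusted p = 0.0337). All 4 fell. Pdap1 and Csnk1e were over 2-fold lower without passing the test, and Csnk1e lay under 2-fold over all its probes (log2 -0.80). Klf6 was the 1 gene over 2-fold lower of 26 measured immediate early genes (3.85%, beside 2.38% of all genes). Fosb and Atf3 lay over 2-fold above both arrays (7.69%, beside 1.75% of all genes), and neither passed the limma test. They read 8389 and 27797 in Mx1-Cre cells, against 2528 and 12624 in Alb-Cre+/+ and 3691 and 9766 in Alb-Cre+/- cells. Immediate early genes are known to respond to the dissociation of tissue.

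Circadian genes had the highest median of the lists, 0.70 (0.93 with median scaling and 0.40 over all probes). Of 11 measured, 9 lay above both Alb-Cre arrays by any amount, where 34.5% of all genes did. Per2 and Tef did so by over 2-fold (18.2%, beside 1.75% of all genes). Per2, a repressor within the clock, read 1947 in Mx1-Cre cells, against 460 in Alb-Cre+/+ and 719 in Alb-Cre+/- cells, and Tef, an output factor, read 1946, against 477 and 958; neither passed the limma test, Per2 lay just under 2-fold over all its probes (log2 0.98) and Tef when the 3 arrays were normalized alone (log2 0.96). Dbp, a clock-driven factor, read 6263 in Mx1-Cre cells, against 1098 and 5599. The hour at which each liver was taken is not given in the sources used here, and its part was not tested.

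The remaining lists held few genes over 2-fold beyond both arrays. Of 22 measured NRF2 targets, Gsta1 and Gsta2, near-identical glutathione transferases, were over 2-fold lower (9.09%, beside 2.38% of all genes). Neither was above background in Mx1-Cre cells. Of 16 acute phase genes 3 were lower (18.8%, beside 2.38% of all genes) and none higher. Of 23 junction genes none lay over 2-fold beyond both, beside 1.75% of all genes above and 2.38% below (2 above both with median scaling). For 200 of the 469 genes over 2-fold beyond both arrays, another probe gave a signal above background on at least 1 of the 3 mutant EpCAM+ arrays. Of these 256 further probes, 63 were over 2-fold beyond both in the same direction and 1, of Slf2, in the opposite one. By any amount, 176 lay beyond both in the same direction and 23 beyond both in the opposite direction. The other 57 did not lie beyond both, ties at the floor among them.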

How the data were processed

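Total RNA of the sorted cells was hybridized to Illumina MouseWG-6 bead arrays, 1 array per condition. The authors deposited a raw mean bead intensity and a detection p-value for each of 45281 probes and sample, together with their own normalized intensity values. From the raw intensity, the 21827 probes detected (p under 0.05) on at least 1 of the 6 arrays were quantile normalized over all 6 arrays, without background subtraction, and taken to log2. Every signal was raised to at least 113.8, the median over the 6 arrays of the lowest signal of a detected probe, and a signal not above background also to the lowest detected one of its own array, so such a fold is a bound ("at least"). Gene symbols came from the platform annotation (34885 probes with 1 symbol, 18 with several, 10378 with none; 2 named from a supplementary table), and a gene was read by the probe the study's marker table names, or otherwise by its brightest probe over the 6 arrays. Bead counts limit the precision of a signal, and with 1 array per condition there is no replicate error.

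Counts and folds against the nearer Alb-Cre array carry no test. limma 3.58.1 in R 4.3.3 (lmFit, eBayes with trend, Benjamini-Hochberg over 11347 genes) compared Mx1-Cre with the mean of both Alb-Cre arrays, with 1 residual degree of freedom. The genes named are the 15 furthest beyond both arrays in each direction that were above background on all 3, the 5 highest lower bounds in each direction, up to 4 members of each list over 2-fold beyond both, the genes the study examined as oval cell markers and the defining cell type markers; other named genes, and the histone families, were chosen after their values were seen. The members and lists were chosen with earlier results of these data known. Promoter sequences are RefSeq's on GRCm38.p6. Alternatives varied the detection filter, background correction, scaling, probe choice, fold threshold, the arrays in the fit and the trend. All 6 arrays lay on 1 BeadChip, so the chip is no batch.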

Additional observations from a re-analysis of the deposited data

How the results depend on the processing

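The counts over 2-fold above and below both Alb-Cre arrays were 199 and 270. With normexp background correction the higher count was 339, and with median scaling 341. A threshold of 1.5-fold gave 751 and 618 genes, and one of 3-fold 41 and 100. Leaving out 1 Alb-Cre array gave 335 to 871 higher and 491 to 809 lower genes, because only 1 array then has to be passed. Of 88 named genes over 2-fold beyond both, 65 stayed so under every setting and none turned to the other side. Medians of 6 of 35 lists and families took the other sign under a setting: with median scaling antigen presentation (-0.19 to 0.02), NRF2 (-0.08 to 0.08), YAP (-0.16 to 0.12), junction (-0.06 to 0.14) and sex-biased genes (0.02 to -0.07), sex-biased genes also for genes above background on all 3 arrays (-0.33) and with a detection p under 0.01 (-0.16), and sex-linked transcripts with that detection p (-0.04).

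The limma counts, 13 higher and 34 lower, depended far more on the setting. They were 53 and 88 with a detection p under 0.01, 1 and 14 for genes above background on all 3 arrays, 460 and 3 with no filter, 25 and 61 with normexp, 89 and 91 with median scaling, 31 and 53 with the 3 arrays normalized alone, and 2 and 6 over all probes of a gene. The authors' normalized values gave 7 higher genes. All 6 arrays in 4 groups gave 3 and 12, and leaving out 1 Alb-Cre array from that fit, chosen after seeing the data, gave 7 to 34 higher and 22 to 67 lower. Without the trend there were 0 and 0. Higher genes made up 27.7% of limma calls in the reported fit, 37.6% with a detection p under 0.01, 6.67% above background on all 3 arrays, 99.4% with no filter, 36.9% with the 3 arrays normalized alone and 49.4% with median scaling. The cause of these shifts was not tested. No paired analysis was possible because each condition has 1 array and the labels give no replicate numbers.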
